A study of Mus musculus with 4 samples.

Results

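Receptors that guide neutrophils to chemoattractants were followed through 8 genes: Fpr1, Fpr2, Ccr1, Ccrl2, Cxcr2, Cxcr4, Ltb4r1 and Ptafr. They were taken by symbol from the deposited tables, and all 8 were found among 54532 genes. The cells were spleen PMN-MDSC (polymorphonuclear myeloid-derived suppressor cells), a neutrophil-like population able to dampen T cells, from newborn C57BL/6 mice. The NECA group had received NECA, an agonist of adenosine receptors, over 5 days. The other group is labelled DMSO, a solvent, also with 5 days of treatment. Each group held 2 libraries of bulk RNA. The labels do not say whether a group's 2 libraries came from 1 animal or culture or from several. The p-values rest on how far these few libraries differed, and the source of those differences was not tested. They may not hold for other animals or cultures.

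Neutrophils find infected or injured tissue with receptors of this kind. Fpr1 and Fpr2 sense formylated peptides of bacteria and mitochondria, and Fpr2 also binds annexin A1 and serum amyloid A. Ltb4r1 senses leukotriene B4 and Ptafr platelet-activating factor, both made from membrane lipids. Ccr1 binds CC chemokines and Cxcr2 the neutrophil-attracting CXC chemokines, while Cxcr4 binds Cxcl12 and holds neutrophils in the bone marrow. Ccrl2 is an atypical receptor that presents chemerin without known G protein signalling of its own. The other members signal mainly through inhibitory G proteins, phospholipase C beta and phosphoinositide 3-kinase gamma.

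Transcripts of 7 of the 8 receptors stood slightly higher with NECA, by 1.07-fold for Ltb4r1 to 1.24-fold for Ccr1, and both NECA libraries lay above both DMSO libraries for each of the 7. This direction held under each scaling of the libraries tried, except that Ltb4r1 turned to a log2 fold change of -0.0103 when the libraries were scaled on neutrophil markers. None of the 8 passed edgeR's quasi-likelihood test after Benjamini-Hochberg adjustment over the 13083 genes tested (0 higher and 0 lower, against 0.352% of all genes called higher and 0.978% called lower). Over all genes the split was 0.161% higher and 1.66% lower with scaling by total count only. At an unadjusted p under 0.05, 7 were higher and 0 lower, against 6.81% and 8.88% of all genes. With scaling by total count only that count was 4 receptors higher and 0 lower, beside 287 and 1690 of all genes. With limma on log2(FPKM + 1) it was 4 and 0, beside 543 and 1055, and on log2(FPKM + 0.1) 0 and 0, beside 411 and 1081. DESeq2's Wald test called 4 of them (Fpr1, Ccr1, Cxcr2 and Cxcr4) higher and 0 lower, against 1.36% and 1.20% of its genes. With 1 library left out, 0 to 4 receptors were called higher and 0 lower, while the share of all genes called lower was 4.01% without NECA replicate 1, 1.40% without NECA replicate 2, 0.626% without DMSO replicate 1 and 0.690% without DMSO replicate 2. In each of these fits the share of all genes called higher was smaller than the share called lower. These fits assume that a lone library varies like the other group. Groups that did not overlap were common: they were found with NECA higher for 22.4% and with NECA lower for 24.3% of all genes tested. Among the 1933 tested genes that averaged 100 CPM (counts scaled to library size) or more, a bound chosen after the values were seen and met by 7 of the receptors, 56.6% had both NECA libraries above both DMSO libraries, 26.4% were higher at an unadjusted p under 0.05, and 1.60% were called higher after adjustment. Of those abundant genes 81.7% had a log2 fold change above 0, against 48.6% of all genes tested. Their median was 0.08, with quartiles of 0.02 and 0.13, and 6 of the 7 receptors lay above the upper quartile, Ltb4r1 being the exception.

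The cells behind the libraries had the transcripts of neutrophils. The 20 lineage markers other than Cxcr2 summed to 149716 and 150636 CPM in NECA replicates 1 and 2, and to 134878 and 140793 CPM in DMSO replicates 1 and 2. Monocyte and macrophage markers (24 genes) summed to 421 and 330.5 CPM with NECA and 908 and 785 CPM with DMSO. Total counts were 15864120 to 18712625 per library, and the 8 receptors together held 0.280% and 0.284% of the counts with NECA and 0.258% and 0.265% with DMSO. In bulk RNA, fewer cells of a type and less RNA per cell cannot be told apart.

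On GRCm38 (GENCODE M21), Fpr1 (ENSMUSG00000045551) lies on chromosome 17 from 17876471 to 17883940 on the minus strand. Fpr2 (ENSMUSG00000052270) follows after 3883 bases, from 17887824 to 17893952 on the plus strand, so that the pair is transcribed away from each other. Ccr1 (ENSMUSG00000025804, 123962124 to 123968692) and Ccrl2 (ENSMUSG00000043953, 111054486 to 111057519) are both on the minus strand of chromosome 9. Cxcr2 (ENSMUSG00000026180, 74153989 to 74161246, plus strand) and Cxcr4 (ENSMUSG00000045382, 128588199 to 128592293, minus strand) are on chromosome 1. Ltb4r1 (ENSMUSG00000046908) occupies 55765962 to 55768494 of chromosome 14 and Ptafr (ENSMUSG00000056529) 132564067 to 132582683 of chromosome 4, both on the plus strand. The coding sequence of Fpr1, Ccr1, Cxcr2, Ltb4r1 and Ptafr lies in 1 exon.

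The 250 bases before the RefSeq start of 4 receptors (GRCm38.p6) are shown, chosen after the values were seen: the divergent pair Fpr1 and Fpr2, then Ccr1 with the highest fold change of the 8, then Cxcr2 with the most counts of the 8. Each reads in the direction of its gene, and capitals mark GAGGAA or its reverse complement TTCCTC, a core of the sites of ETS factors such as PU.1.
Fpr1, chr17:17883940-17884189, minus strand: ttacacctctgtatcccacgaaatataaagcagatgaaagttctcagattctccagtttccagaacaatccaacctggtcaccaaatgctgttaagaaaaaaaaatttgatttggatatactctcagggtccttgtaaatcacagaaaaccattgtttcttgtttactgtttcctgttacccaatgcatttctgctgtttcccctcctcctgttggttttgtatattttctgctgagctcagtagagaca
Fpr2, chr17:17887574-17887823, plus strand: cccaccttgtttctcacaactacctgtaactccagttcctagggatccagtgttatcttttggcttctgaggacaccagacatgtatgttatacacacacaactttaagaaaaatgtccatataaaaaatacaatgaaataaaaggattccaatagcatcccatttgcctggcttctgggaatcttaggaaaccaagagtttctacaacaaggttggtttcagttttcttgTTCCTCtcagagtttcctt
Ccr1, chr9:123968693-123968942, minus strand: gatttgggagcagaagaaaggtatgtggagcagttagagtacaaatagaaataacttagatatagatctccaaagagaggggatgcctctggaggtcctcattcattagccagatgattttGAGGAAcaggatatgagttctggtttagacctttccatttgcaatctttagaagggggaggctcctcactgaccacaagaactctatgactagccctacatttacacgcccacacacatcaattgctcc
Cxcr2, chr1:74153744-74153993, plus strand: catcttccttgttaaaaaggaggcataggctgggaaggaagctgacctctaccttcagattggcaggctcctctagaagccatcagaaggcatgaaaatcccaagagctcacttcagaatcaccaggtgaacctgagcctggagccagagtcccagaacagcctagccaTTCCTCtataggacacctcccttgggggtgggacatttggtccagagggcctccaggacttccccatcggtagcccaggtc
On either strand the ETS core was present in 5 of the 8 receptors' windows (Fpr2, Ccr1, Cxcr2, Ltb4r1 and Ptafr, with the most upstream start of Ccrl2), against 23.3% of 32851 windows of the same length. The core of the cAMP response element, TGACG or CGTCA, was in 0 of these 8 windows and in 17.8% of all windows. It was in the windows of the other 2 RefSeq starts of Ccrl2. TTGCNNAA, a core bound by C/EBP factors, was in 0 of the 8 (9.56% of all), and the RUNX core TGTGGT, searched on both strands, in 2 (Ccr1 and Ltb4r1; 14% of all). These letter matches do not show binding, and a missing match concerns these windows only.

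The formyl peptide receptors come first by role. Fpr1 had 255 and 286 CPM in NECA replicates 1 and 2, against 218 and 229 CPM in DMSO replicates 1 and 2. The groups did not overlap, and NECA replicate 2 was the highest library. The log2 fold change was 0.28 (SE 0.07, adjusted p = 0.068), a 1.21-fold difference with a 95% interval of 1.10 to 1.34. Without NECA replicate 1 it passed, at 0.36 (adjusted p = 9.26e-05, where 1.65% of all genes were called higher), while without NECA replicate 2 it was 0.20 (adjusted p = 0.191).

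Fpr2 had more counts than its neighbour in every library, with 511 and 502 CPM with NECA and 436 and 473 CPM with DMSO. Its lowest library was DMSO replicate 1, and its log2 fold change was 0.16 (SE 0.05, adjusted p = 0.176; 1.12-fold, interval 1.03 to 1.21). Without DMSO replicate 1 that value was 0.10. The ratio of Fpr1 to Fpr2 counts, which no library scaling can change, was 0.499 and 0.569 with NECA and 0.4998 and 0.485 with DMSO, so NECA replicate 2 stood apart and NECA replicate 1 lay within the DMSO values. Counts of Fpr2 are uncertain: a stretch of 1037 bases is 95.8% identical to the annotated transcript of Gm5966, and 1131 bases are 87.4% identical to Fpr3, with which 48 exonic bases overlap. Gm5966 had 0 counts in each of the 4 libraries, and Fpr3 had 132 and 45 counts with NECA and 52 and 80 with DMSO. With all 3 summed, an alternative chosen after seeing the data, the log2 fold change was 0.16 (adjusted p = 0.172). Fpr1 shared 936 bases with Fpr2 at 70.0% identity only.

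Like the other receptors that were higher, the lipid mediator receptors stood only slightly higher with NECA. Ltb4r1 had 708 and 689 CPM with NECA, against 644 and 656 CPM with DMSO. The groups did not overlap, and the log2 fold change was 0.10 (SE 0.05, adjusted p = 0.317; 1.07-fold, interval 1.0004 to 1.15). Ptafr had 110.4 and 110.2 CPM with NECA and 99.3 and 96.3 CPM with DMSO, a log2 fold change of 0.17 (SE 0.06, adjusted p = 0.213; 1.13-fold, interval 1.02 to 1.24). The 2 NECA libraries of Ptafr were almost the same.

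**Figure D1:**
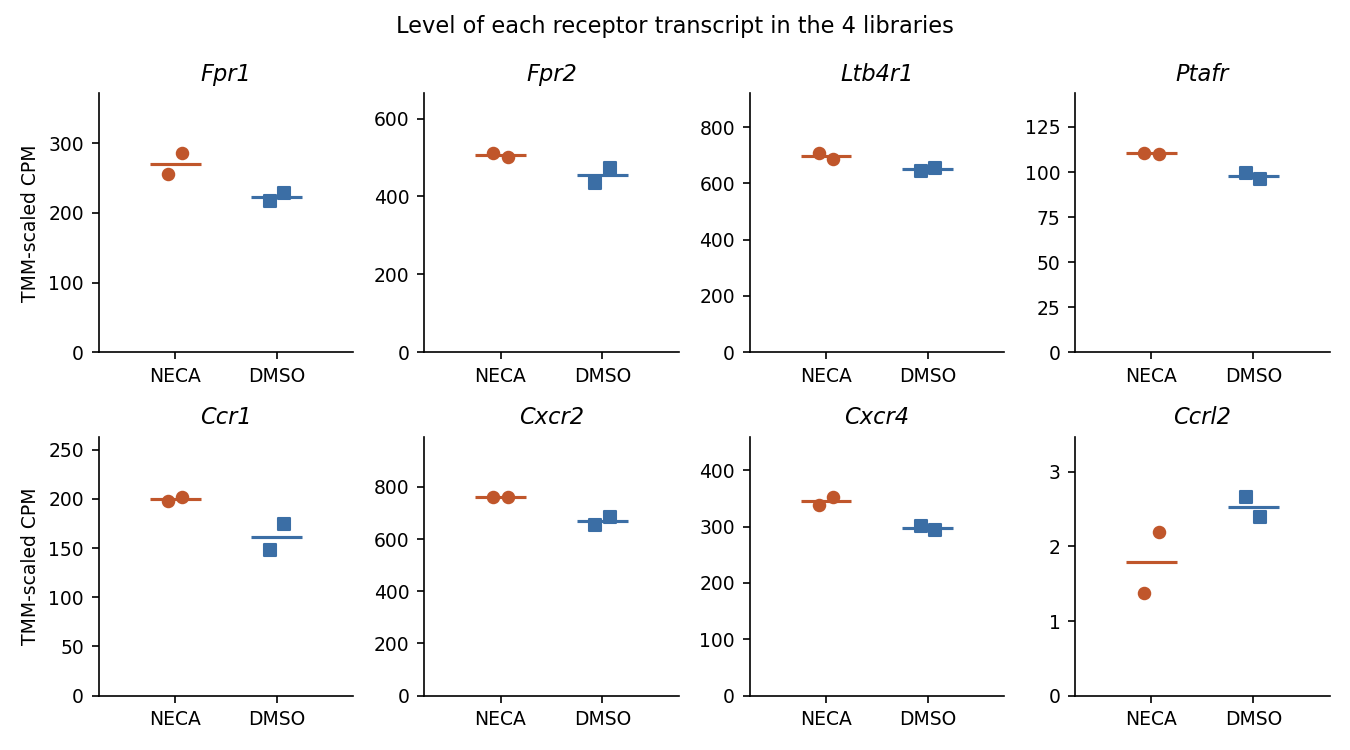
Level of each receptor transcript as TMM-scaled CPM (vertical axes from 0), with 1 point per library and a line at the mean of the 2 NECA or 2 DMSO libraries. The NECA points lie above the DMSO points in 7 panels and below them for Ccrl2, where levels were 1.37 to 2.66 CPM.

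Of the chemokine receptors, Ccr1 had the highest fold change, with 198 and 202 CPM with NECA against 148 and 174 CPM with DMSO. The log2 fold change was 0.31 (SE 0.08, adjusted p = 0.072; 1.24-fold, interval 1.11 to 1.39). Its value depended on the DMSO libraries, which were wider apart than the NECA ones: it was 0.20 without DMSO replicate 1 (adjusted p = 0.287) and 0.43 without DMSO replicate 2 (adjusted p = 0.0138, with 0.385% of all genes called higher). With NECA replicate 1 left out it passed as well (adjusted p = 0.00163). The same held with NECA replicate 2 left out (0.30, adjusted p = 0.0125, with 0.869% called higher).

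Cxcr2 had 760.3 and 762.7 CPM with NECA and 653 and 683 CPM with DMSO. The log2 fold change was 0.19 (SE 0.05, adjusted p = 0.0792; 1.14-fold, interval 1.06 to 1.22), and it passed without NECA replicate 1 (adjusted p = 0.0263). A stretch of 211 bases is 95.3% identical to a transcript of Gm48735, so some Cxcr2 counts are uncertain. Cxcr4 had 338 and 353 CPM with NECA and 302 and 293 CPM with DMSO, a log2 fold change of 0.21 (SE 0.05, adjusted p = 0.0794; 1.16-fold, interval 1.07 to 1.26), and likewise passed without NECA replicate 1 (adjusted p = 0.0108). Cxcr2 favours release of neutrophils from the marrow and Cxcr4 their retention, and the balance of the pair was measured within each library. Cxcr2 FPKM over Cxcr4 FPKM was 1.34 and 1.28 with NECA and 1.28 and 1.38 with DMSO, so the ratio overlapped between the groups.

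Ccrl2 was near the lower limit of what was tested. It had 25 and 34 counts with NECA and 51 and 45 counts with DMSO, or 1.37 and 2.20 CPM with NECA against 2.66 and 2.39 CPM with DMSO. Both NECA libraries were below both DMSO libraries, but the log2 fold change of -0.51 (SE 0.39, adjusted p = 0.592) had a wide 95% interval, from -1.35 to 0.33. It was -0.20 without NECA replicate 1 but -0.87 with NECA replicate 2 left out.

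**Figure D2:**
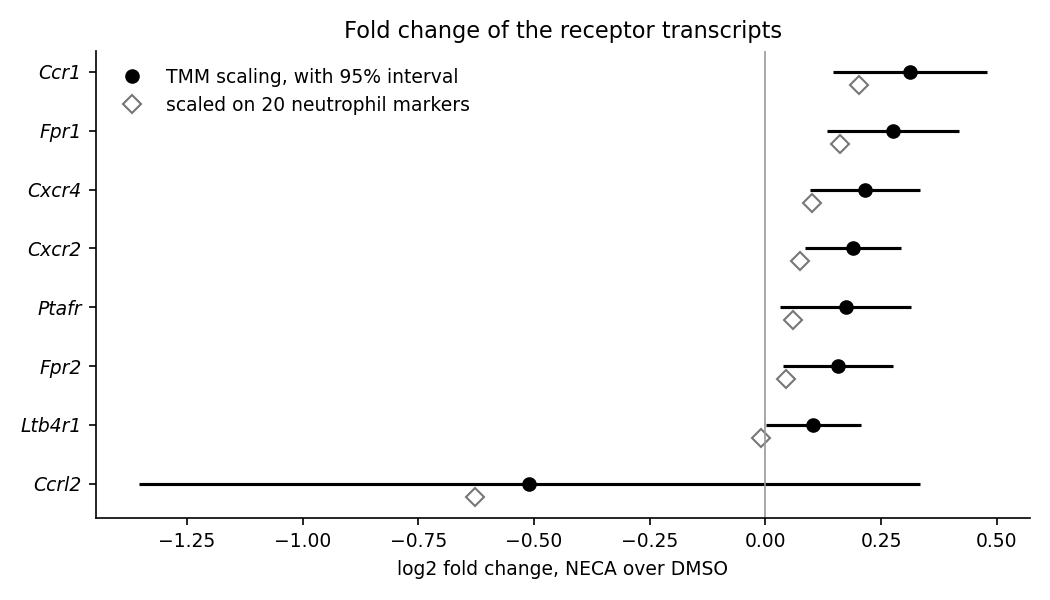
Log2 fold change of each receptor, NECA over DMSO (horizontal axis), with filled points and 95% intervals from edgeR on TMM-scaled libraries and open diamonds with libraries scaled on 20 neutrophil markers. The filled points of 7 receptors lie between 0.10 and 0.31, the diamonds lie lower (-0.0103 for Ltb4r1), and the interval of Ccrl2 spans 0.

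Relative to each other, levels can be compared only per gene length, as FPKM. Ltb4r1 was the most abundant receptor per length, at 502 ± 9.18 FPKM with NECA and 465 ± 5.48 FPKM with DMSO (SD, n = 2 each). Fpr2 followed at 392 ± 4.53 FPKM with NECA and 349 ± 19.9 FPKM with DMSO, and Cxcr2 at 250.3 ± 0.819 FPKM with NECA and 219 ± 6.75 FPKM with DMSO. Fpr1 (205 ± 16.5 FPKM with NECA, 168 ± 5.93 FPKM with DMSO) and Cxcr4 (191 ± 6.30 FPKM with NECA, 164 ± 3.44 FPKM with DMSO) did not differ beyond their spread. The ratio of Cxcr4 to Fpr1 FPKM was 0.968 and 0.905 with NECA and 1.02 and 0.937 with DMSO. Ccr1 stood at 70.8 ± 1.11 FPKM with NECA and 56.6 ± 6.67 FPKM with DMSO, Ptafr at 30.4 ± 0.00763 FPKM with NECA and 26.8 ± 0.592 FPKM with DMSO. Ccrl2 came last, at 0.689 ± 0.225 FPKM with NECA and 0.970 ± 0.0750 FPKM with DMSO. At each other step of this order the values of the libraries did not overlap in either group. By mean FPKM, Ltb4r1 ranked 58 among all genes in each group and Ptafr ranked 1462 with NECA and 1598 with DMSO.

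**Figure D3:**
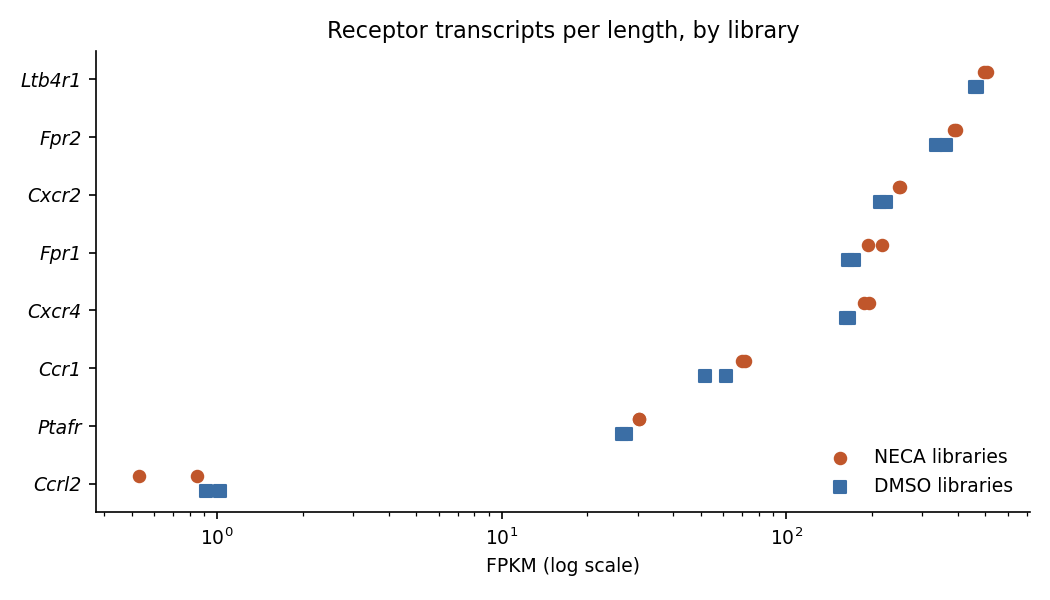
FPKM of the 8 receptors on a log axis, 1 circle per NECA library and 1 square per DMSO library, ordered by the DMSO mean. Levels run from 0.529 FPKM for Ccrl2 to 508 FPKM for Ltb4r1, and Fpr1 and Cxcr4 overlap.

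Over the 20 neutrophil lineage markers other than Cxcr2, the median log2 fold change was 0.14, against 0.18 over the 8 receptors and -0.01 over all genes tested. Without DMSO replicate 1 the marker median was 0.09 and the receptor median 0.17, and with scaling by total count only they were 0.07 and 0.11. Of the 20 markers 16 had a log2 fold change above 0. The other 4 were the primary granule genes Mpo (-1.19) and Elane (-0.69), and Fcnb (-0.06) and Chil3 (-0.0070). Mpo had 6.15 and 3.49 CPM with NECA and 6.79 and 15.4 CPM with DMSO (adjusted p = 0.121), so both NECA libraries were lower. Of the whole list of 21 markers, 2 were called higher (Mmp9 and Mmp8), 0 lower and 19 did not pass. When the libraries were scaled on those 20 markers, a choice made after seeing the data, the log2 fold changes were 0.20 for Ccr1, 0.16 for Fpr1, 0.10 for Cxcr4, 0.08 for Cxcr2, 0.06 for Ptafr, 0.05 for Fpr2, -0.0103 for Ltb4r1 and -0.63 for Ccrl2. That scaling moved the median of all genes to -0.12. In edgeR's test 0 receptors then passed (against 0.122% of all genes higher and 2.55% lower), with adjusted p from 0.21 to 0.959. At an unadjusted p under 0.05 in that test, 2 receptors were higher and 0 lower, beside 130 and 2041 of the 13083 genes tested. The share of these markers in the receptor values was not tested beyond this scaling.

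Marker genes of macrophages were lower with NECA. Of 23 tested monocyte and macrophage markers, 0 were higher and 17 lower by edgeR's test, with a median log2 fold change of -1.57. Vcam1, an adhesion molecule (28.3 and 21.7 CPM with NECA, 82.0 and 84.1 CPM with DMSO), fell by 1.73 on the log2 scale (adjusted p = 1.58e-05), with an overlap of 61 exonic bases with Gm43109. Axl, a receptor for dying cells, fell by 1.49 (adjusted p = 2.34e-05) and C1qc, a complement subunit, by 1.81 (adjusted p = 7.4e-05). The macrophage gene Vsig4, too rare to be tested, had 0 counts in both NECA libraries and 0 and 4 with DMSO. B cell markers (15 genes) summed to 175 and 46.3 CPM with NECA and 290.05 and 311 CPM with DMSO, with 0 higher and 1 (Blnk) lower. Erythroid markers (11 genes) summed to 378 and 59.6 CPM with NECA and 1234 and 538 CPM with DMSO, and 0 were called in either direction by edgeR. T and NK cell markers (14 genes) summed to 19.1 and 19.6 CPM with NECA and 32.0 and 33.8 CPM with DMSO. Of these, 0 of the 7 tested were called. Among the untested ones Cd3e, Ncr1, Klrb1c and Eomes had 0 counts in both NECA libraries, and with DMSO Cd3e had 15 and 6, Ncr1 6 and 0, Klrb1c 3 and 9 and Eomes 11 and 2. Dendritic cell markers (12 genes, 7 tested) summed to 30.9 and 17.8 CPM with NECA and 49.6 and 43.9 CPM with DMSO, with 0 higher and 2 (Btla and Irf8) lower. Of the 7 tested, Clec9a alone had a log2 fold change above 0 (0.20), and the groups overlapped for Clec9a, Cd209a, Itgax and Ccr7. Markers of basophils, mast cells and eosinophils (13 genes, 12 tested) summed to 461 and 432 CPM with NECA and 445 and 448 CPM with DMSO, with 0 higher and 1 (Ccr3) lower. Hdc made up most of that sum, with 371 and 368 CPM with NECA and 324 and 319 CPM with DMSO. The median log2 fold change of the 12 tested was -0.80, and 2 of them (Hdc and Siglecf) were above 0. Blnk was not called without DMSO replicate 2 (adjusted p = 0.143), and Btla and Irf8 were not called without either DMSO library. Their part in the receptor values was not tested.

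**Figure D4:**
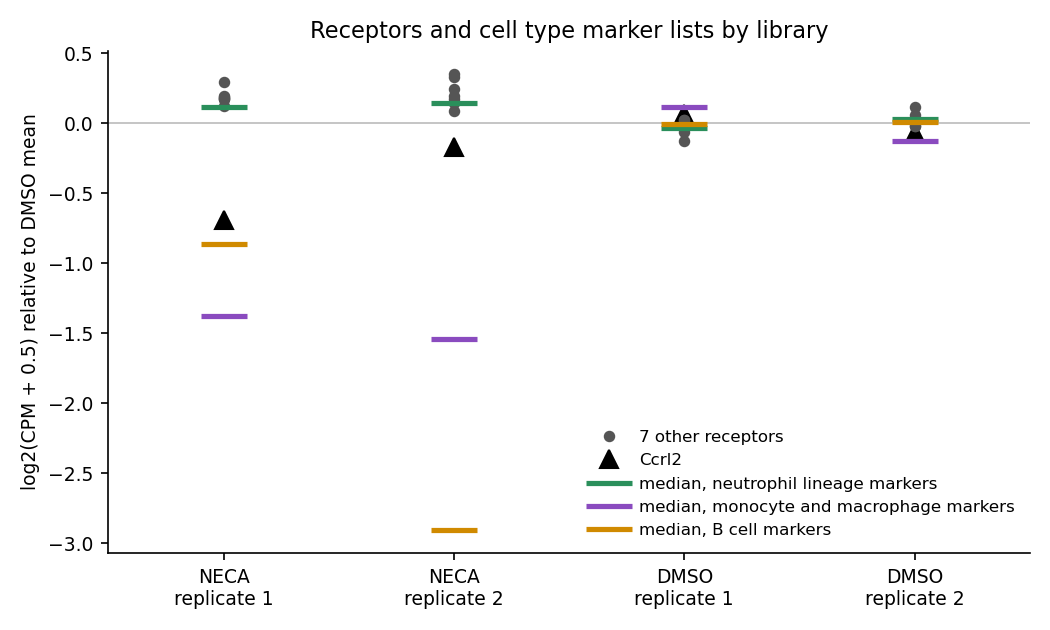
Level of each receptor and median of 3 marker lists in each library, on the log2(CPM + 0.5) scale, with the mean of both DMSO libraries set to 0 for each gene. The 7 abundant receptors lie at 0.08 to 0.35 in the NECA libraries, where the neutrophil median is at 0.12 and 0.14. Ccr1 (0.30 and 0.33) and Fpr1 (0.19 and 0.35) lie above that median. The macrophage median is at -1.38 and -1.54 in the NECA libraries and the B cell median at -0.87 and -2.91.

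Of other chemoattractant receptors, the 3 most abundant stood slightly higher with NECA and most of the rare ones lower. Of 33 listed, 32 were found and 20 tested, of which 0 were higher, 1 was lower and 19 did not pass, with a median log2 fold change of -0.58 that was -0.16 without NECA replicate 2. Among the most abundant, C5ar1, the receptor of complement C5a, had 327 and 338 CPM with NECA against 275 and 298 CPM with DMSO (0.21, adjusted p = 0.095). C5ar2, its companion, stood at 0.27 (adjusted p = 0.122) and the sphingosine phosphate receptor S1pr4 at 0.12 (adjusted p = 0.333). Gpr84, a receptor of fatty acids, stood at 0.15 and S1pr1, another sphingosine phosphate receptor, at -0.16, with adjusted p of 0.612 and 0.585. Ccr3, the eotaxin receptor of eosinophils and basophils, fell to 1.70 and 1.42 CPM with NECA, against 5.49 and 5.52 CPM with DMSO (-1.81, SE 0.30, adjusted p = 0.0142). Its gene lies 53279 bases from Ccr1, whose value was 0.31. Ackr2, a scavenger of CC chemokines, had 0.165 and 0.129 CPM with NECA against 1.41 and 1.17 CPM with DMSO (adjusted p = 0.0638). Cxcr1, the nearest relative of Cxcr2, had 0 and 1 counts with NECA and 7 and 0 with DMSO, and Fpr-rs3, Fpr-rs4, Fpr-rs6 and Fpr-rs7 had 0 counts in each library.

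Genes for the receptors' ligands, or for the enzymes that make them, showed 1 call. Of 22 listed, 13 were tested, and 0 were higher, 1 was lower and 12 did not pass (median -0.03). The Fpr2 ligands Anxa1 and Camp were abundant and stood at 0.05 each (adjusted p = 0.587 and 0.533). The chemokines Cxcl1, Cxcl5 and Ccl7 and the ligand Saa3 had 0 counts in all 4 libraries. Mif, a cytokine that binds Cxcr2 and Cxcr4, fell to 3.84 and 3.81 CPM with NECA against 7.002 and 9.77 CPM with DMSO (-1.13, SE 0.25, adjusted p = 0.0492). Without DMSO replicate 2 it was not called (adjusted p = 0.21), and its counts are uncertain beside a transcript of C230062I16Rik with 99.4% identity over 508 bases. Ccl5, a ligand of Ccr1, had 0.110 and 0.0646 CPM with NECA against 0.679 and 0.903 CPM with DMSO (adjusted p = 0.107). The enzymes of leukotriene B4 synthesis were abundant: Alox5 had a log2 fold change of 0.12 (adjusted p = 0.208), Alox5ap 0.12 (adjusted p = 0.305) and Lta4h 0.08 (adjusted p = 0.432). Lpcat2, which makes platelet-activating factor, had 184 and 193 CPM with NECA and 165.2 and 165.4 CPM with DMSO (0.19, adjusted p = 0.137). Its counts are uncertain beside the overlapping Gm45472.

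Among 12 tested genes that inactivate or trim ligands, 3 were higher, 0 lower and 9 did not pass (median -0.01). Cyp4f18, which inactivates leukotriene B4, rose to 153 and 161 CPM with NECA, against 104 and 114 CPM with DMSO (0.53, SE 0.07, adjusted p = 0.00383), and it was called with any 1 library left out. It shares 181 exonic bases with Zfp961, so its counts are uncertain. The receptor of that lipid, Ltb4r1, stood at 0.10. Mmp9 and Mmp8, proteases that process chemokines, rose by 0.23 each (adjusted p = 0.0126 and 0.0254). Neither was called with libraries scaled by total count (adjusted p = 0.0556 for Mmp9 and 0.0837 for Mmp8). The same held when scaled on neutrophil markers (adjusted p = 0.353 for Mmp9 and 0.352 for Mmp8), a list that includes both. Mmp8 was also not called without DMSO replicate 1, where it stood at 0.19. These are the same calls as those given above among the neutrophil markers. Pla2g7, which degrades platelet-activating factor, stood at 0.32 (adjusted p = 0.161).

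Of 37 tested genes that carry the receptors' signals, 1 was higher, 0 were lower and 36 did not pass. Of the 37 log2 fold changes 36 were above 0 (median 0.12). This stands beside 48.6% of all genes tested, and 81.7% of those averaging 100 CPM or more (median 0.08). With libraries scaled by total count only, 29 of the 37 were above 0, and scaled on neutrophil markers 21 were. Plcb3, a phospholipase C beta, rose to 143.5 and 135.5 CPM with NECA, against 108 and 114 CPM with DMSO (0.33, SE 0.07, adjusted p = 0.033). Neither omission of a DMSO library left it called (adjusted p of 0.153 without replicate 1 and 0.0559 without replicate 2), nor did scaling by total count or on neutrophil markers. It shares 22 exonic bases with Ppp1r14b. The Src family kinase Fgr stood at 0.17 (adjusted p = 0.0946), the kinase Mapk3 at 0.21 (adjusted p = 0.0962) and the inhibitory G protein subunit Gnai3 at 0.18 (adjusted p = 0.112). Of 18 tested genes that switch off or move receptors, 0 were called by edgeR in either direction (median 0.07, but -0.0040 by total count and -0.05 scaled on neutrophil markers), among them the receptor kinases Grk2 (0.11) and Grk6 (0.09) and the arrestin Arrb2 (0.07). At an unadjusted p under 0.05 they included Rab11a, a recycling GTPase (0.23, adjusted p = 0.121), Grk3 (-0.42, adjusted p = 0.265) and Cd74 (-1.80, adjusted p = 0.12). Cd74, a partner of Mif that macrophages and B cells also make, had 43.8 and 4.07 CPM with NECA and 82.9 and 88.0 CPM with DMSO. Exons of Rab11a overlap those of Gm47308, and exons of Cd74 those of Mir5107.

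**Figure D5:**
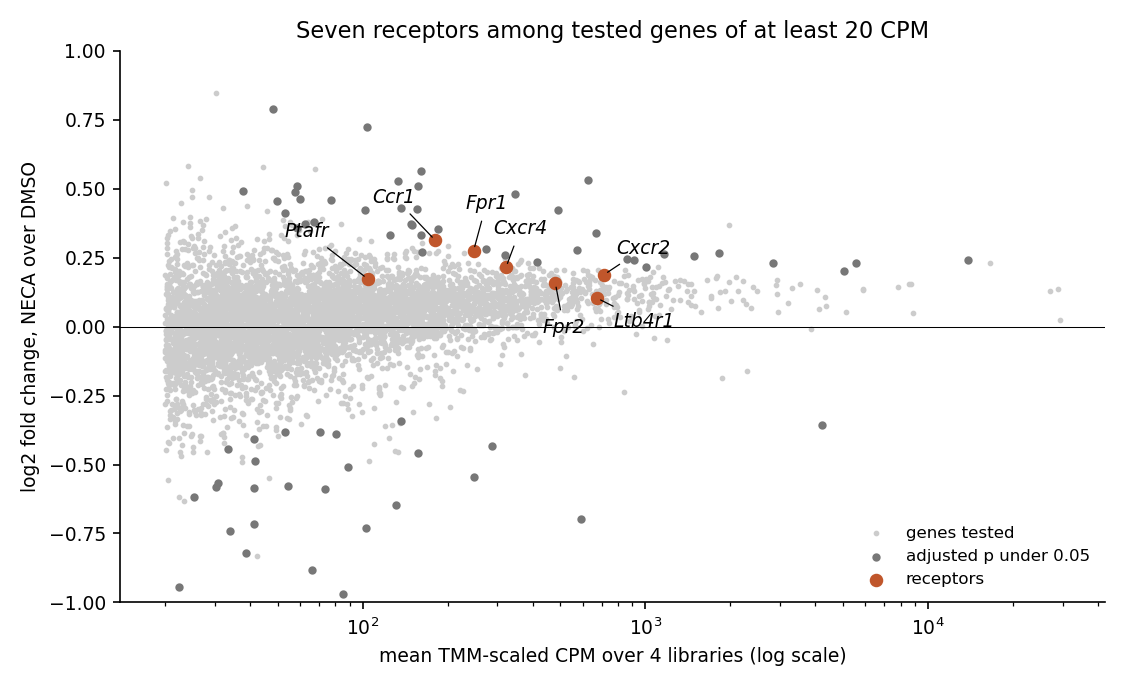
Log2 fold change, NECA over DMSO, against mean CPM for tested genes of at least 20 CPM, with 5633 of 5656 drawn and 23 outside the axis. The 7 abundant receptors lie above 0 within the upper part of the cloud, which itself lies mostly above 0 at high CPM, and the dark points mark genes with adjusted p under 0.05.

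The genes closest to each receptor across the 4 libraries were found by the Euclidean distance of centred log2(CPM + 0.5) values, over 5521 genes averaging 20 CPM or more. They were Grina and Sfxn5 for Fpr1 (distances 0.01 and 0.03), Crtc3 and Ankrd22 for Fpr2 (0.0076 and 0.02), Emilin2 and Ubac2 for Ccr1 (0.05 and 0.06), and Vill and Trpm2 for Cxcr4 (0.0051 and 0.02). For Cxcr2 they were Map3k9 and Lonrf1 (both 0.01), for Ltb4r1 Nfe2 and Aph1c (0.0093 and 0.0099) and for Ptafr Ppp2r5a and Ppm1m (0.0070 and 0.0091). Ccrl2 had no close match, with Slc20a1 at 0.19 and Scfd1 at 0.23. Among them Grina, with 1196 and 1347 CPM with NECA and 1032 and 1085 CPM with DMSO, was called higher (0.26, adjusted p = 0.0492), but only NECA replicate 1 could be left out with the call kept. With 4 libraries such closeness is a description only.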

How the data were processed

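RNA of PMN-MDSC was sequenced as read pairs from amplified SMARTer cDNA, per the labels' protocols. Per the file headers, the authors deposited, for each Ensembl gene, a read count in whole numbers and its FPKM. The submitters' processing notes name HISAT, StringTie and edgeR, without versions, and mm10 and GRCm38 as builds. Not given in the sources used here are the counter, annotation release, strand use and handling of multi-mapped reads. The lengths implied by the deposited FPKM differed from the GENCODE M21 exon lengths of the 8 receptors by less than 1 base.

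Counts were tested in R 4.3.3 with edgeR 4.0.16 (filterByExpr with a minimum count of 10, TMM scaling, glmQLFit and glmQLFTest, no replicate block, Benjamini-Hochberg adjustment over all genes tested, threshold 0.05). CPM are on TMM-scaled library sizes, the SE is the size of the log2 fold change over the square root of F, and intervals are 95%. An exact permutation test of 2 libraries against 2 cannot go below p = 0.333. Alternatives used DESeq2 1.42.0, limma 3.58.1 on log2(FPKM + 1) and log2(FPKM + 0.1), other scalings, no filter, a replicate block and each library left out. The script was also run on simulated counts with known changes, where a larger share of its calls was false than the threshold allows for. Transcripts were compared with BLAST 2.17.0, and promoters are RefSeq's on GRCm38.p6. Replicates differed by more than sampling noise (chi-square over degrees of freedom 5.38 in NECA, 6.78 in DMSO). In NECA replicates 1 and 2 the erythroid markers summed to 378 and 59.6 CPM, but the neutrophil markers to 149716 and 150636 CPM. Xist had 25.6 and 36.9 CPM in NECA replicates 1 and 2, and 204 and 64.1 CPM in DMSO replicates 1 and 2. It was called lower with NECA by edgeR (adjusted p = 0.0217). Where these differences come from was not tested. Members, lists and tests were chosen with earlier results of these data known. Named genes were all members, up to 3 genes per other list, taken by p-value, and 2 of like profile per member. Other genes named were chosen after their values were seen.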

Additional observations from a re-analysis of the deposited data

How the results depend on the processing

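Of the 8 receptors' log2 fold changes, 7 kept their direction under every alternative run and Ltb4r1 turned to -0.0103 only with libraries scaled on neutrophil markers. Calls appeared under several settings. With no filter on low counts 4 receptors were higher: Fpr1 (0.27), Ccr1 (0.31), Cxcr2 (0.19) and Cxcr4 (0.21). In that fit 285 of 22344 genes were called higher and 590 lower. DESeq2 called the same 4 (0.28, 0.32, 0.20 and 0.22). The replicate block called 3 of them, Fpr1 (0.27), Ccr1 (0.32) and Cxcr2 (0.19), with 0.940% of all genes called higher. Same-numbered libraries did not deviate together (r = 0.02 over genes, which are not independent replicates), so the numbers are not taken as pairs. Leaving out 1 library gave 0 to 4 receptors higher and 0 lower. The ranges over the 4 omissions were 0.20 to 0.36 for Fpr1, 0.10 to 0.21 for Fpr2, 0.20 to 0.43 for Ccr1, -0.87 to -0.20 for Ccrl2, 0.16 to 0.21 for Cxcr2, 0.19 to 0.25 for Cxcr4, 0.09 to 0.13 for Ltb4r1 and 0.15 to 0.19 for Ptafr. In these fits a lone library is assumed to vary like the other group. Over all genes, higher and lower calls were 46 and 128. They were 230 and 560 without NECA replicate 1, 122 and 196 with NECA replicate 2 left out, 23 and 86 without DMSO replicate 1 and 53 and 95 without DMSO replicate 2. They were 285 and 590 without a filter, 123 and 298 with the replicate block, 21 and 217 with total count only, and 16 and 333 when scaled on neutrophil markers. DESeq2 gave 151 higher and 134 lower. Limma on log2(FPKM + 1) and on log2(FPKM + 0.1) gave 0 and 0, with 543 and 1055 and with 411 and 1081 genes at an unadjusted p under 0.05. The cause of these differences was not tested. Ccrl2 had 25 to 51 counts per library, the fewest among the receptors, and the part of depth in its missing call was not tested.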
